A study of Drosophila melanogaster with 2 samples.

Results

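The mitochondrial ribosomal protein genes of Drosophila were followed through the cell types of the ovary and between old and young flies. Every gene whose symbol begins with mRpL or mRpS and a number was taken from the gene list that both count matrices share, which gave 73 of 13942 genes. By symbol, 47 are named for the large subunit (mRpL) and 26 for the small subunit (mRpS). The choice used the symbols alone and no measured value. The study asked how the ovary changes as flies grow old, and dissociated whole ovaries of w1118(x);; females were profiled with 10x Genomics 3′ single-cell sequencing at 6 weeks and at 1 week after eclosion. The females were kept in vials together with males, and the anterior tip of the ovary, which holds the stem cells, was not enriched. One library per age was analysed here, so no difference between ages has a replicate check and no p-value is given.

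The mitochondrial ribosome translates the few proteins that mitochondrial DNA encodes, all of them subunits of the respiratory chain and ATP synthase. Its RNAs come from mitochondrial DNA, whereas all its proteins are encoded in the nucleus, made in the cytoplasm and imported. Its large subunit joins amino acids, its small subunit reads the mRNA, and oocytes and their nurse cells stock mitochondria and translation machinery for the embryo.

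A barcode counted as a cell when it held 500 genes or more, 1000 or more unique molecular identifiers (UMIs, each standing for 1 captured mRNA molecule) and no more than 20% of UMIs from mitochondrial DNA. This left 9878 cells of 20224 barcodes at 6 weeks and 9131 of 33317 at 1 week, with a median of 12586 and 10639 UMIs per cell. The median mitochondrial share of kept cells was 4.42% at 6 weeks and 6.18% at 1 week, and 43.7% of barcodes at 6 weeks and 72.2% at 1 week were over the limit. Of the kept barcodes, 26 occurred in both libraries. The 1-week cells fell into 24 clusters, found without the mRp genes, and each 6-week cell was placed among them by its nearest 1-week cells. Marker genes named 20 of the clusters, and all 7 germ cell markers, including vas, nos and osk, were detected in the Germ cell-like cluster of each library. The somatic classes included Escort-like cells, follicle stem cells with prefollicle cells (FSCs + pFCs-like), early and middle follicle cells (Early-Mid FCs-like), Late FCs-like, Muscle-like, Immune-like and Gut- or tubule-like cells. The last 3 are not parts of the ovarian epithelium. Early-Mid FCs-like clusters were named by detected markers and by limits given with the processing, with no need for raised markers. No marker of this class was raised 2-fold in the clusters led by mrva, by daw and by CG33939. In each other cluster of the class at least 1 was.

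Levels are given as UMIs per 1000000 UMIs of the same cells (CPM). Since each UMI marks the 3′ end of a molecule, CPM were not divided by gene length, and levels compared between genes are compared on this scale. Intervals are exact at 95% (Poisson for CPM, binomial for ratios) and cover counting error only. The 7 Early-Mid FCs markers summed to 1895 CPM at 6 weeks and 1771 CPM at 1 week in Early-Mid FCs-like cells. Their sum was higher in FSCs + pFCs-like cells (3642 and 3823 CPM) and in cells of unnamed clusters (3881 and 2793 CPM). In every other class it was lower. The level of these markers therefore does not set the class apart, and its name rests on their detection.

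The mRp genes together held 471510 UMIs at 6 weeks and 400372 UMIs at 1 week. Of the 73 genes, 72 were detected in both libraries with at least 1000 UMIs in all. Most were expressed at a similar, modest level, with a median over the 73 genes of 38.3 CPM at 6 weeks and 39.0 CPM at 1 week. The 3 most abundant genes were mRpS5, the relative of the bacterial small-subunit protein S5, with 209 CPM at 6 weeks and 217 CPM at 1 week, mRpL33, with 94.2 CPM and 103.7 CPM, and mRpS16, with 82.1 CPM and 91.6 CPM. mRpS5 lies on chromosome 3L at 24537236 to 24543534 of the plus strand (BDGP6.54) and led every other member by a wide margin. The least abundant detected genes were mRpL50, which has no bacterial relative, with 15.7 CPM at 6 weeks and 17.7 CPM at 1 week, and mRpL10, with 16.3 CPM and 15.9 CPM. Proteins of the L10 family anchor the stalk that recruits translation factors to the ribosome.

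mRpL53 had 0 UMIs in either library, which allows up to 0.025 CPM at 6 weeks and 0.031 CPM at 1 week over all cells. All 829 of its annotated exon bases are shared with CG33155 on the same strand, and a read there cannot be given to 1 gene alone. CG33155 itself had 15 UMIs at 6 weeks and 23 UMIs at 1 week, so the level of mRpL53 could not be measured. The other same-strand overlaps were smaller, with 35.2% of the exon bases of mRpL13 shared with CG10602 and 3.76% of those of mRpS14 shared with CG32533. Separately, 42 members share exon bases with a counted gene on the opposite strand. How the counting used strand is not given in the sources used here, so values of those genes may hold reads of their partners.

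The genes were detected in every class, at summed levels that differed beyond counting error between most classes. Germ cell-like cells were highest in each library, with 5406 CPM at 6 weeks and 4983 CPM at 1 week (95% interval 5299 to 5516 and 4855 to 5114). Gut- or tubule-like cells came next, with 3891 CPM and 4419 CPM. This class joins a gut and a tubule cluster, and the gut cluster alone lay above Germ cell-like cells at 1 week. Early-Mid FCs-like cells, the largest class with 6001 and 5463 cells, had 3334 CPM at 6 weeks and 3456 CPM at 1 week. Escort-like cells, the somatic cells around the early germ cysts, had 3249 CPM and 3357 CPM, close to the follicle cells. The FSCs + pFCs-like cells, a class that also includes a cluster marked by upd1 of the polar cells, were lower, with 2339 CPM and 2424 CPM. Muscle-like cells had 2092 CPM and 2046 CPM. The order of these 6 classes was the same in both libraries, and only Early-Mid and Escort-like cells lay as near each other as their intervals (3323 to 3345 and 3163 to 3336 CPM at 6 weeks, 3444 to 3469 and 3269 to 3446 CPM at 1 week). Both the mRpL and the mRpS group shared the order, except that the mRpS sum at 6 weeks was 1327 CPM in Early-Mid FCs-like and 1332 CPM in Escort-like cells. Over the 24 clusters the mRpL sum and the mRpS sum went together (Pearson r = 0.98 at 6 weeks and 0.98 at 1 week, a description over clusters of 1 library each). Late FCs-like cells, which make yolk protein and eggshell, had 3704 CPM at 6 weeks and 3137 CPM at 1 week, and the few Immune-like cells had 2916 CPM and 1767 CPM.

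**Figure D1:**
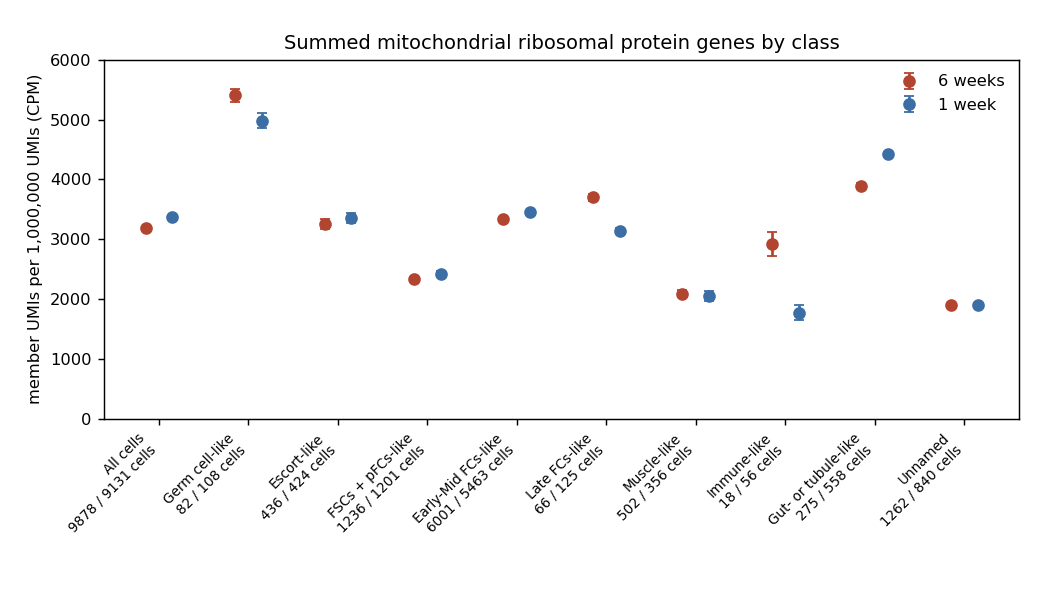
Summed CPM of the 73 mitochondrial ribosomal protein genes in each cell class, 6 weeks left of 1 week, with exact Poisson 95% intervals for counting error and the number of cells under each name. Germ cell-like cells were highest in both libraries (5406 and 4983 CPM), and FSCs + pFCs-like cells (2339 and 2424 CPM) lay below Early-Mid FCs-like cells (3334 and 3456 CPM).

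These class levels depended in part on how much of each cell's RNA encoded cytoplasmic ribosomal proteins. Those mRNAs took 39.8% of Germ cell-like UMIs at 6 weeks and 35.4% at 1 week, 49.4% and 49.4% of Early-Mid FCs-like UMIs, 27.2% and 25.3% of FSCs + pFCs-like UMIs, and 15.9% and 15.9% of Escort-like UMIs. When UMIs of those genes and of mitochondrial DNA were left out of the total, the mRp genes had 9686 CPM at 6 weeks and 8576 CPM at 1 week in Germ cell-like cells, against 7209 CPM and 7623 CPM in Early-Mid FCs-like cells. On that scale FSCs + pFCs-like cells had 3465 CPM and 3656 CPM and Escort-like cells 4221 CPM and 4562 CPM. Of these classes, Germ cell-like cells stayed highest and FSCs + pFCs-like cells stayed below the follicle cells on either scale. Escort-like cells were near the follicle cells only on the scale of all UMIs.

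Germ cell-like cells exceeded Early-Mid FCs-like cells in the summed level by 0.70 on the log2 scale at 6 weeks and 0.53 at 1 week. The gap was 0.43 and 0.17 without the mitochondrial and cytoplasmic ribosomal protein genes in the total, and 0.19 and 0.23 when each cell was classed by its own marker UMIs. Gene by gene, 26 of the 72 detected members were at least 1.5-fold higher in Germ cell-like cells in both libraries and 0 were at least 1.5-fold lower. Among all 6055 genes with at least 30 UMIs in Germ cell-like cells, the minimum for every count between classes, 50.3% were that much higher and 5.88% that much lower, so the share of members past the fold was below that of genes at large. The median log2 ratio of the members was 0.58 at 6 weeks and 0.47 at 1 week, against 0.76 and 0.83 over all those genes. A smaller shift was widespread among members and genes at large, with 64 of 72 members and 4605 of 6055 genes above 0 in both libraries. The pattern of single genes was alike at both ages (Pearson r = 0.79 over 72 genes, between 2 libraries that share a design, a depth range and the same cluster names).

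The 3 genes with the highest mean ratio over both libraries were mRpL50, mRpS29 and mRpL10. mRpL50 had 57.0 CPM in Germ cell-like cells, against 14.8 CPM in Early-Mid FCs-like cells, at 6 weeks, and 56.7 CPM against 16.2 CPM at 1 week (log2 ratio 1.94 and 1.81). mRpS29, a GTP-binding protein of the small subunit whose human relative is DAP3, had 86.4 CPM against 25.9 CPM at 6 weeks and 89.8 CPM against 24.9 CPM at 1 week (1.74 and 1.85). mRpL10 had 44.0 CPM against 14.5 CPM at 6 weeks and 45.3 CPM against 12.1 CPM at 1 week (1.60 and 1.91). These are 2 of the scarcest members in the ovary as a whole and 1 of below-median level, and each was more than 3 times as abundant in Germ cell-like as in Early-Mid FCs-like clusters. When each cell was classed by its own marker UMIs instead, the log2 ratios at 6 weeks and 1 week were 0.84 and 0.60 for mRpL50, 0.55 and 0.74 for mRpS29, and 0.60 and 1.06 for mRpL10. mRpL50 shares exon bases with Neos, mRpS29 with qkr58E-2 and mRpL10 with CG11617 on the opposite strand.

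At the other end of the same ranking, 3 small-subunit genes were no higher in germ cells beyond counting error. mRpS33 had 32.7 CPM in Germ cell-like cells, against 36.9 CPM in Early-Mid FCs-like cells, at 6 weeks and 28.8 CPM against 37.3 CPM at 1 week. mRpS18C had 31.0 CPM against 37.1 CPM at 6 weeks and 37.5 CPM against 40.1 CPM at 1 week. mRpS16 had 89.7 CPM against 86.6 CPM at 6 weeks and 92.4 CPM against 95.9 CPM at 1 week. For each of these 3 genes the interval of the ratio held 0 in both libraries, on 33 to 159 UMIs in germ cells. The log2 ratios varied over 7 alternative settings. At 6 weeks they ran from -0.44 to 0.34 for mRpS33, -0.84 to 0.04 for mRpS18C and -0.22 to 0.77 for mRpS16. At 1 week the ranges were -0.73 to -0.20 for mRpS33, -0.45 to 0.34 for mRpS18C and -0.41 to 0.16 for mRpS16. Their levels, unlike those of the 3 genes above, could not be told apart between germ cells and follicle cells at this depth.

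**Figure D2:**
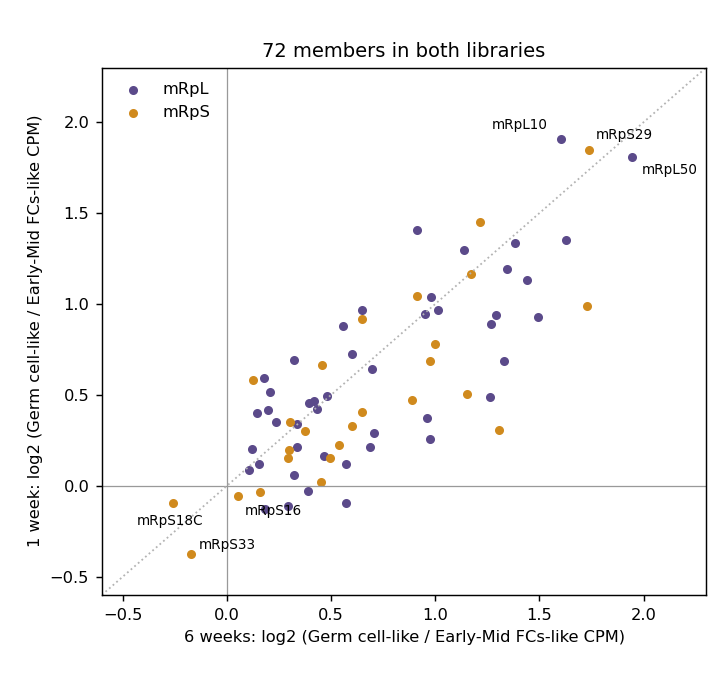
Log2 ratio of CPM in Germ cell-like over Early-Mid FCs-like cells for 72 mitochondrial ribosomal protein genes, at 6 weeks on the horizontal axis and at 1 week on the vertical axis, with the named genes labelled. mRpL50, mRpS29 and mRpL10 lie between 1.60 and 1.94 at 6 weeks and between 1.81 and 1.91 at 1 week, and mRpS33, mRpS18C and mRpS16 lie near or below 0.

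FSCs + pFCs-like cells differed from Early-Mid FCs-like cells in the opposite way. In both libraries 31 of 72 members were at least 1.5-fold lower in FSCs + pFCs-like cells and 0 were at least 1.5-fold higher, whereas 9.54% of all 7131 genes were that much lower and 46.7% that much higher. The members' median log2 ratio was -0.66 at 6 weeks and -0.58 at 1 week, against 0.61 and 0.61 over all those genes. In both libraries 69 of 72 members lay below 0, against 1629 of 7131 genes. Of the cytoplasmic ribosomal protein genes, 82 of 84 were lower by the same rule. The deepest FSCs + pFCs-like cluster, marked by upd1 of the polar cells, had 2337 CPM at 6 weeks and 2708 CPM at 1 week, the cluster marked by cas and zfh1 had 2395 CPM and 2155 CPM, and the shallowest, led by CG13403 and zfh1, had 2290 CPM and 2325 CPM. Their median depths were 11958 and 10069 UMIs per cell, 7502 and 5080, and 3138 and 2741, and the part of depth in the level of the class was not tested.

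Of the other classes, Muscle-like cells had 1 member at least 1.5-fold above and 41 at least 1.5-fold below Early-Mid FCs-like cells in both libraries, of 71 members with at least 30 UMIs, where 37.2% and 15.0% of all genes were. Gut- or tubule-like cells had 11 above and 0 below (34.6% and 13.8% of all genes), Escort-like cells 2 above and 1 below (59.3% and 6.07%), and Late FCs-like cells 2 above and 1 below (11.4% and 27.2%). By single genes, 55 of 72 members had their highest class level in Germ cell-like cells at 6 weeks and 42 at 1 week, and 4 and 25 had it in Gut- or tubule-like cells. The lowest class was Muscle-like for 37 members at 6 weeks and 16 at 1 week, FSCs + pFCs-like for 20 and 13, and Immune-like for 14 and 42. The share of all genes highest or lowest in each class was not counted, so these counts are not read as a trait of the members. The Immune-like counts rest on 18 cells at 6 weeks and 56 at 1 week, with a median of 12 and 9 member UMIs per cell.

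Within the Early-Mid FCs-like class the 9 clusters spread nearly as far as the classes did. The cluster led by CG7059 and bdl, which also held the mitotic kinase gene polo, had 3173 CPM at 6 weeks and 3036 CPM at 1 week, and the largest, led by Asph and holding the mitotic genes fzy and aurB, had 4183 CPM and 4202 CPM. The cluster led by Iris, mid and spo, a gene of ecdysteroid synthesis, was at 4102 CPM and 4729 CPM. The cluster led by mrva, Mct1 and the insulin-like peptide gene Ilp6 was the lowest at 1 week, with 2234 CPM at 6 weeks and 2089 CPM at 1 week, and the cluster led by jv and Ekar, whose median mitochondrial share of 12.7% and 14.1% was the highest of the class, had 2189 CPM and 2326 CPM.

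The Iris, mid, spo cluster and the mrva, Mct1, Ilp6 cluster were set side by side because their summed levels lay far apart, a choice made after the values were seen. They held 554 and 788 cells at 6 weeks and 667 and 738 at 1 week, with median depths of 29538 and 22943 UMIs at 6 weeks and 23671 and 16420 at 1 week. All 72 detected members were at least 1.2-fold higher in the Iris cluster in both libraries and 0 lower, where 33.7% of 6644 genes were higher and 24.8% lower. The choice of the pair fixes the direction of these counts. The members' median log2 ratio was 0.98 at 6 weeks and 1.33 at 1 week, and single members spanned 0.33 to 1.58 at 6 weeks and 0.34 to 2.14 at 1 week. mRpL20, whose bacterial relative helps assemble the large subunit, had the widest gap, with 52.5 CPM in the Iris cluster, against 17.6 CPM in the mrva cluster, at 6 weeks and 71.4 CPM against 16.2 CPM at 1 week. mRpS28 had the narrowest, with 51.3 CPM against 40.7 CPM at 6 weeks and 55.7 CPM against 43.9 CPM at 1 week, and mRpS5 came next with 232 CPM against 181 CPM and 247 CPM against 182 CPM.

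Other mitochondrial genes were not used in that choice and gave a mixed picture in the same pair of clusters. They are not independent of the choice. Over all 24 clusters the members' sum had r = 0.75 at 6 weeks and 0.74 at 1 week with respiratory chain genes. With mitochondrial translation and RNA genes it had r = 0.82 and 0.83. Of the nuclear-encoded respiratory chain genes, 65 of 66 were at least 1.2-fold higher in the Iris cluster in both libraries (median log2 0.80 at 6 weeks and 0.99 at 1 week). Of the mitochondrial translation factors, aminoacyl-tRNA synthetases and mitochondrial RNA genes, 25 of 32 were (0.62 and 0.85). The 13 protein genes of mitochondrial DNA were level between the clusters, with 0 past the fold (-0.05 and -0.03), and so were the cytoplasmic ribosomal protein genes, with 3 of 84 past it (0.00 and -0.02). In this chosen pair, the gap in the mRp genes was seen in nuclear genes for mitochondrial proteins and in neither of the other large RNA groups.

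Over the 19 clusters with at least 100 cells in each library, most single members followed the sum of the others. The median Pearson r of a member with that sum was 0.86 at 6 weeks and 0.89 at 1 week, and it was over 0.5 for 69 and 70 of 72 members. No share of all genes stands beside this count, so it is not read as a trait of the members. These clusters share a library and differ in depth, and the summed level itself had r = 0.34 and 0.36 with the median UMIs per cell over all 24 clusters. The fold between a member's highest and lowest cluster had a median of 3.57 at 6 weeks and 4.09 at 1 week. The clearest exception was mRpS5, the most abundant member, with r = 0.15 and 0.16. It was highest in cells where its partners were low or middling, with 333 CPM at 6 weeks in the shallowest FSCs + pFCs-like cluster, and 329 and 329 CPM at 6 weeks and 289 and 332 CPM at 1 week in the Escort-like clusters led by Wnt6 and by CG2233. It was lowest in the unnamed cluster led by vir-1 and abd-A, with 128 CPM at 6 weeks and 131 CPM at 1 week. These levels are on the scale of all UMIs. Cytoplasmic ribosomal protein mRNAs took 17.0%, 13.5% and 16.6% of UMIs at 6 weeks in those FSCs + pFCs-like, Wnt6 and CG2233 clusters. At 1 week they took 15.3%, 15.9% and 15.9%. The Iris cluster had 54.8% at 6 weeks and 53.5% at 1 week. The part of this difference in the pattern of mRpS5 was not tested. The next lowest r were those of mRpL52 (0.35 and 0.42) and mRpL10 (0.45 and 0.57).

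**Figure D3:**
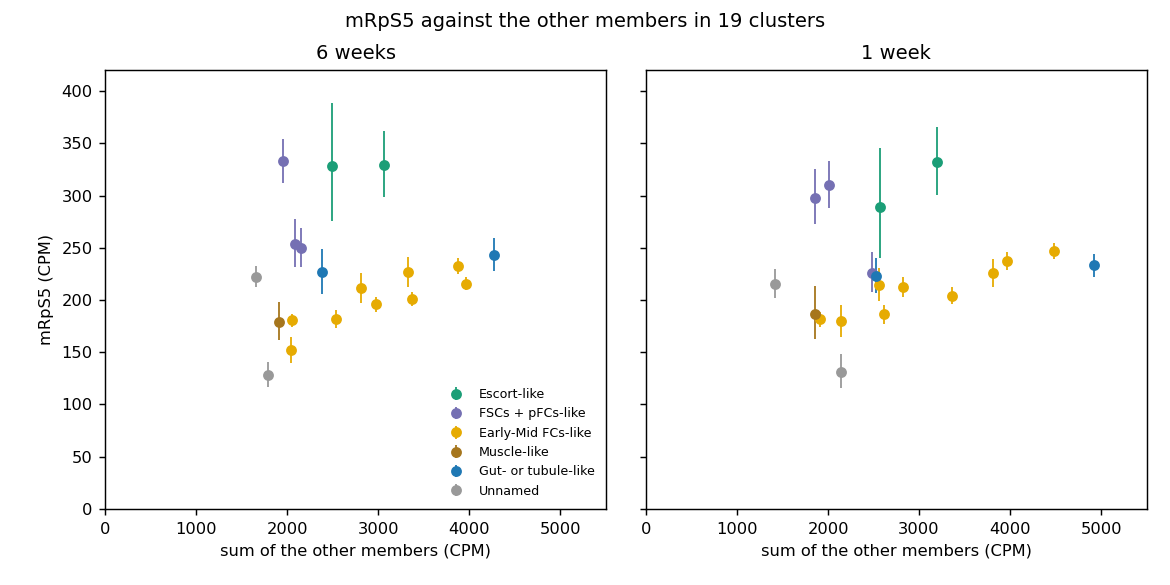
CPM of mRpS5 against the summed CPM of all other mitochondrial ribosomal protein genes in 19 clusters with at least 100 cells in each library, 6 weeks on the left and 1 week on the right, 1 point per cluster. mRpS5 spans 128 to 333 CPM at 6 weeks and 131 to 332 CPM at 1 week and hardly follows the other members (Pearson r = 0.15 and 0.16).

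Outside the symbol rule, 2 further genes encode proteins of the same particle and went with the members over the 24 clusters (r of their sum with the members' sum 0.98 at 6 weeks and 0.97 at 1 week). They are tko (technical knockout), the relative of bacterial S12, with 50.2 CPM at 6 weeks and 51.3 CPM at 1 week, and bonsai, the relative of S15, with 40.1 CPM and 43.3 CPM. Over the same clusters the members' sum had r = 0.82 and 0.83 with the sum of mitochondrial translation and RNA genes, 0.75 and 0.74 with nuclear-encoded respiratory chain genes, and 0.41 and 0.39 with cytoplasmic ribosomal protein genes. With the mRNAs of mitochondrial DNA it was -0.32 and -0.35.

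Between ages, the mRp genes taken over all cells changed little. Their sum was 3192 CPM at 6 weeks and 3372 CPM at 1 week, a log2 ratio of -0.08 (95% interval -0.09 to -0.07), which is 0.946-fold. Of 72 members, 0 were at least 1.2-fold higher and 0 at least 1.2-fold lower at 6 weeks. Over all 8989 genes with at least 100 UMIs, 11.9% were that much higher and 16.5% that much lower, and over the 6920 with at least 1000 UMIs, as all detected members had, the shares were 9.44% and 10.3%. Both counts of members were thus below the shares of genes at either minimum, which were not matched to the members in depth. Most leaned the same way, with 61 of 72 below 0, against 51.5% of all genes, and a median log2 ratio of -0.08, against -0.01 over all genes. The interval lay below 0 for 45 members and above 0 for 3. No share of all genes stands beside this count or the interval counts within classes below. They are therefore not read as a trait of the members. The mRpL and the mRpS group leaned alike (median -0.08 for mRpL and -0.07 for mRpS, with summed levels of 1916 and 2025 CPM for mRpL and of 1276 and 1348 CPM for mRpS at 6 weeks and 1 week).

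The 5 members with the lowest ratios of age were mRpL23, mRpL41, mRpS7, mRpS17 and mRpL20. mRpL23, a protein that in bacteria lines the exit of the peptide tunnel, had 44.7 CPM at 6 weeks and 53.2 CPM at 1 week (log2 ratio -0.25, 95% interval -0.30 to -0.20). mRpL41, a large-subunit protein with no bacterial relative, had 41.7 CPM and 49.2 CPM (-0.24, -0.29 to -0.19), and mRpS7, which in bacteria organises the head of the small subunit, had 75.9 CPM and 87.0 CPM (-0.20, -0.24 to -0.16). mRpS17 followed with 49.5 CPM and 56.4 CPM (-0.19) and mRpL20 with 33.4 CPM and 38.0 CPM (-0.18). All 5 intervals lay below 0, although no gene reached the 1.2-fold line.

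At the upper end stood mRpS35, mRpL14, mRpS30, mRpL47 and mRpL32. mRpS35, a small-subunit protein, had 25.9 CPM at 6 weeks and 23.6 CPM at 1 week (log2 ratio 0.14, 95% interval 0.07 to 0.21). mRpL14 had 37.4 CPM and 35.2 CPM (0.09, 0.03 to 0.14) and mRpL47, the relative of bacterial L29, had 40.3 CPM and 38.3 CPM (0.07, 0.01 to 0.13). For mRpS30, which despite its symbol sits in the large subunit in humans, the values were 17.3 CPM and 16.3 CPM (0.08), and for mRpL32 they were 24.6 CPM and 23.8 CPM (0.05). The intervals of mRpS30 and mRpL32 held 0, so only mRpS35, mRpL14 and mRpL47 exceeded counting error upwards.

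**Figure D4:**
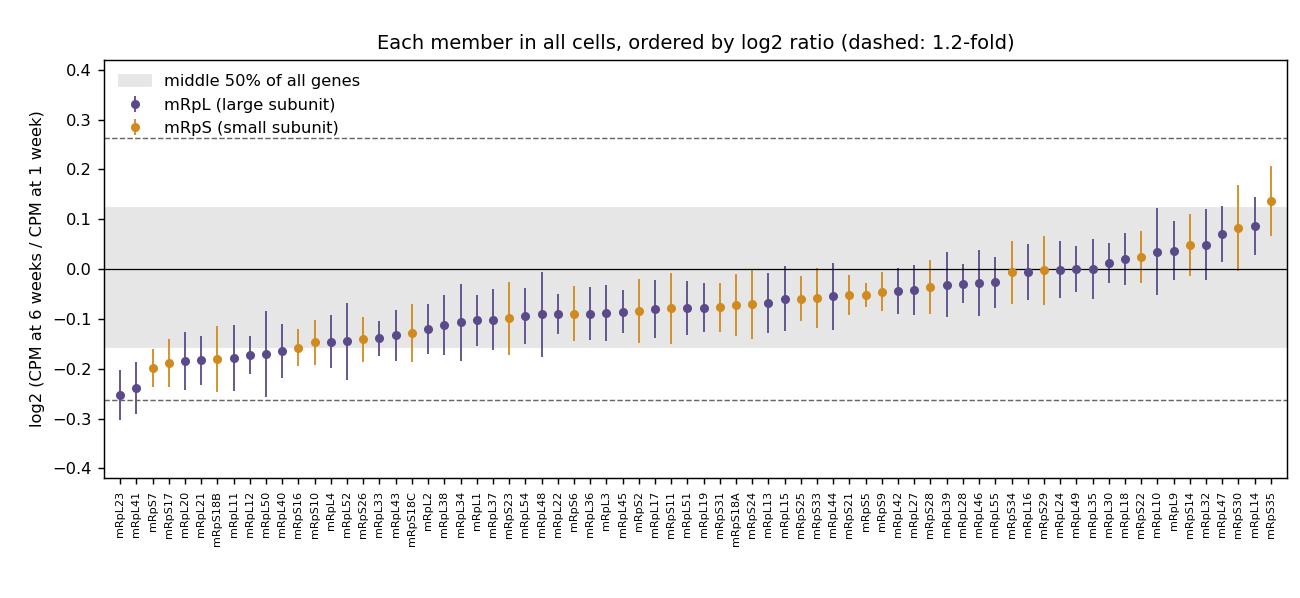
Log2 ratio of CPM at 6 weeks over 1 week, over all cells, for 72 mitochondrial ribosomal protein genes in order (mRpL purple, mRpS orange), with exact binomial 95% intervals, the middle 50% of all genes in grey and dashed lines at 1.2-fold. All members lie within the dashed lines, from mRpL23 at -0.25 to mRpS35 at 0.14, and 61 of 72 lie below 0.

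A ratio over all cells can shift with the makeup of the cells as well as within them, so the classes were taken apart. Weighting each class by its mean share over both libraries gave a log2 ratio of -0.044 in place of -0.079, and keeping cells of any mitochondrial share gave -0.046. In Early-Mid FCs-like cells the sum was 3334 CPM at 6 weeks and 3456 CPM at 1 week (-0.05, 95% interval -0.06 to -0.05), or -0.019 with no mitochondrial limit. No member of 72 reached 1.2-fold in either direction, where 10.1% of 7792 genes were higher and 10.6% lower, and 7.64% and 5.86% of the 5822 genes with at least 1000 UMIs. There, 50 members lay below 0, where 48.4% of the 5822 genes with at least 1000 UMIs did. The members' median was -0.05, against 0.00 over all genes. The interval was below 0 for 28 members and above 0 for 7, with no share of all genes set beside these counts. The ends of the range were mRpL23 at -0.21 and mRpL10 at 0.26, with 14.5 CPM at 6 weeks and 12.1 CPM at 1 week, just short of the 1.2-fold line. The 9 clusters did not move as 1, since the interval of the summed ratio lay below 0 in 4, above 0 in 3 and held 0 in 2, from -0.21 in the Iris cluster to 0.12 in the cluster led by daw.

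In the FSCs + pFCs-like class, which includes the upd1 cluster, the sum was 2339 CPM at 6 weeks and 2424 CPM at 1 week (log2 ratio -0.05, 95% interval -0.08 to -0.02). There, 1 of 72 members was at least 1.2-fold higher and 7 at least 1.2-fold lower, where 11.7% and 10.0% of all 6053 genes were, so the share of lower members was close to that of genes at large. mRpL41 had the lowest ratio, with 31.4 CPM at 6 weeks and 41.6 CPM at 1 week (-0.41, -0.67 to -0.15, on 241 and 266 UMIs). mRpS23 had 12.6 CPM and 16.7 CPM (-0.41) and mRpL13 16.7 CPM and 21.1 CPM (-0.34). Among members with at least 200 UMIs in the class, the highest were mRpL55, with 30.8 CPM and 26.1 CPM (0.24), mRpL11, a protein of the stalk base, with 20.6 CPM and 17.5 CPM (0.23), and mRpS28, with 24.7 CPM and 21.9 CPM (0.18). The member past 1.2-fold was mRpS30, singled out after its values were seen, with 13.3 CPM and 10.0 CPM (0.41, -0.06 to 0.88, on 102 and 64 UMIs). Of the other 6 genes, the interval excluded 0 for mRpL41, and mRpS23 had its upper end at 0.00. Over the class the interval lay below 0 for 5 members and above 0 for 0, with no share of all genes set beside these counts. The 3 clusters went separate ways, with -0.21 in the upd1 cluster, 0.15 in the cas and zfh1 cluster and -0.02 in the CG13403 and zfh1 cluster. The class ratio therefore does not stand for stem and prefollicle cells alone. Classing each cell by its own marker UMIs turned it to 0.10.

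**Figure D5:**
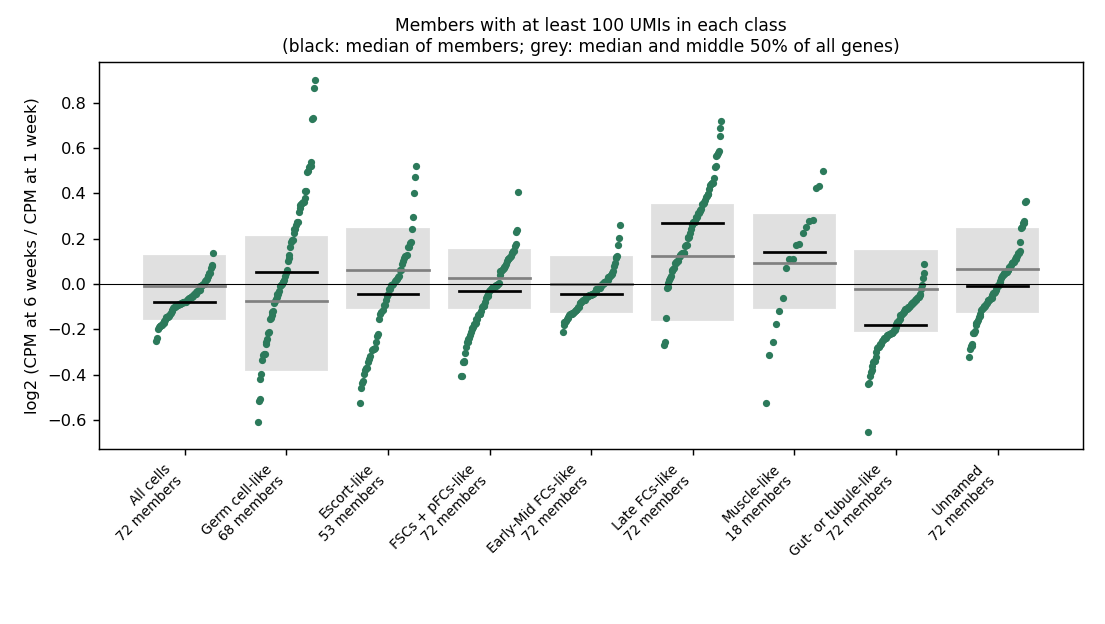
Log2 ratio of CPM at 6 weeks over 1 week for each mitochondrial ribosomal protein gene with at least 100 UMIs in a class (points), the median of those genes (black line), and the median and middle 50% of all genes of that class (grey). The median of the members is 0.27 for the Late FCs-like class, -0.18 for Gut- or tubule-like, and between these for the FSCs + pFCs-like (-0.03) and Early-Mid FCs-like (-0.05) classes.

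Gut- or tubule-like cells, which carry markers of organs next to the ovary, had the lowest ratio of the named classes. Their sum was 3891 CPM at 6 weeks and 4419 CPM at 1 week (log2 ratio -0.18, 95% interval -0.21 to -0.16). In this class 69 of 72 members lay below 0, and the share of all genes below 0 is not given here. There, 18 members were at least 1.2-fold lower and 0 higher, where 19.7% and 13.6% of 6293 genes were, so the share past the fold was near that of genes at large while the median, -0.18 against -0.02, was not. mRpL41 had 41.8 CPM and 65.6 CPM (-0.65) and mRpL23 had -0.44 on the log2 scale. Both the gut cluster marked by mex1, with 4514 CPM and 5153 CPM, and the tubule cluster marked by Uro, with 2609 CPM and 2755 CPM, were lower at 6 weeks. The gut cluster made up 160 of 275 cells at 6 weeks and 385 of 558 at 1 week. Of the respiratory chain genes, 18 of 66 were at least 1.2-fold lower in this class.

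Late FCs-like cells, 66 at 6 weeks and 125 at 1 week, went the other way. The sum was 3704 CPM at 6 weeks and 3137 CPM at 1 week (log2 ratio 0.24, 95% interval 0.21 to 0.27), and 37 of 72 members were at least 1.2-fold higher and 1 lower. In this class 34.5% of all 4059 genes were higher and 18.3% lower, and 41 of 84 cytoplasmic ribosomal protein genes were higher. mRpS22 had 48.0 CPM and 29.1 CPM (0.72). Yolk protein and eggshell mRNAs took 9.32% of the UMIs of these cells at 6 weeks and 17.7% at 1 week, and with them left out of the total the ratio was 0.10.

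In Germ cell-like cells, 82 at 6 weeks and 108 at 1 week, the sum was 5406 CPM at 6 weeks and 4983 CPM at 1 week (log2 ratio 0.12, 95% interval 0.07 to 0.17). Of 68 members with at least 100 UMIs, 22 were at least 1.2-fold higher and 10 lower, where 21.5% and 33.4% of 3490 genes were. mRpS31 (0.90) and mRpS30 (0.86) were among the higher ones and mRpS7 (-0.61) among the lower ones. A single cell held 16.1% of the members' UMIs in this class at 6 weeks and 5.69% at 1 week, and without that cell of each library the sums were 4965 CPM and 4884 CPM. With equal weight to each cell the ratio was -0.10, so no direction with age can be given for germ cells. The 7 germ cell markers summed to 1674 CPM at 6 weeks and 5151 CPM at 1 week, and the part of this difference in the mRp ratio was not tested.

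Immune-like cells were few, 18 at 6 weeks and 56 at 1 week, with 2916 CPM and 1767 CPM (log2 ratio 0.72). At 6 weeks 1 cell held 50.4% of the members' UMIs, against 6.65% for the top cell at 1 week, and without them the values were 1807 CPM and 1721 CPM (0.07). Escort-like cells (-0.05, 95% interval -0.10 to 0.01) and Muscle-like cells (0.03, -0.04 to 0.11) showed no difference beyond counting error in the sum. In Escort-like cells 4 of 53 members with at least 100 UMIs were at least 1.2-fold higher and 15 lower, where 22.8% and 11.6% of 3916 genes were, and in Muscle-like cells 5 of 18 were higher and 2 lower, where 29.2% and 11.9% of 3124 genes were. In Escort-like cells the interval lay below 0 for 1 member, above 0 for 1 and held 0 for 51, so counting error alone spans most of these single-gene ratios.

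The other parts of mitochondrial gene expression were read beside the members. Of 38 genes for mitochondrial translation and mitochondrial RNA, 35 had at least 100 UMIs, and 1 was at least 1.2-fold higher and 5 lower at 6 weeks over all cells, with a median log2 ratio of -0.09 and a range from the ribosome recycling factor gene mRRF2 (-0.36) to the valyl-tRNA synthetase gene ValRS-m (0.34). Of 70 nuclear-encoded respiratory chain genes, 2 were higher and 0 lower, with a median of -0.02. The mRNAs that mitochondrial ribosomes translate differed more. The 13 protein genes of mitochondrial DNA summed to 45759 CPM at 6 weeks and 58022 CPM at 1 week (-0.34), 8 of them at least 1.2-fold lower. The mRp genes therefore stood at 6.97 UMIs per 100 UMIs of mitochondrially encoded mRNA at 6 weeks, against 5.81 at 1 week.

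That proportion was higher at 6 weeks in all 9 classes and in 23 of 24 clusters. Germ cell-like cells had 12.4 per 100 at 6 weeks and 7.67 at 1 week, the FSCs + pFCs-like class had 4.42 and 2.87, the Early-Mid FCs-like class 7.65 and 6.51, and the Gut- or tubule-like class 7.97 and 7.28. The mitochondrial share of UMIs also served as the limit on cells, and the libraries differed in it, so the proportion was taken under other limits. With a limit of 10% it was 8.2 at 6 weeks and 7.0 at 1 week over all cells, and with no limit 4.99 and 3.72. The part of that difference between the libraries in the proportion was not tested. Within bands of mitochondrial share, the mRp genes per 1000000 UMIs of nuclear genes were lower at 6 weeks over all cells. They had 3448 and 3640 CPM at 0 to 5%, 3125 and 3683 at 5 to 10%, and 2419 and 2748 at 10 to 20%. The bands differed in makeup. At 5 to 10%, Early-Mid FCs-like cells were 852 of 2270 cells at 6 weeks and 2103 of 3382 at 1 week. Within that class the values were 3544 and 3701, 3421 and 3673, and 2526 and 2802 CPM in the same bands. In FSCs + pFCs-like cells they were 2559 and 2828, 2364 and 2554, and 2062 and 2582 CPM. The part of makeup in the values over all cells was not tested.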

How the data were processed

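Ovaries of flies at 6 weeks and 1 week after eclosion were analysed, 1 library per age. The authors mapped the 10x Genomics 3′ reads to the BDGP6 build with Cell Ranger 9.0.0, and the deposited values are raw UMI counts for each gene in each barcode, not normalized. The annotation release and the use of introns and of strand are not given in the sources used here. UMIs are molecule counts, so PCR copies do not enter, and depth limits precision, with 147732187 UMIs in kept cells at 6 weeks and 118721990 at 1 week.

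Limits on cells were a minimum of 500 genes and 1000 UMIs and a maximum of 20% mitochondrial UMIs. Doublets were left in, and the alternative removed the 799 barcodes at 6 weeks and 1217 at 1 week with the highest scrublet scores. With scanpy 1.11.5, 2000 variable genes (without the members, the comparison lists and other genes, 713 in all) gave 30 components, 1-week cells were clustered (20 neighbours, Leiden resolution 1), and 6-week cells took the cluster of most of their 30 nearest 1-week cells. Cluster names needed 3 or more markers of a class, each 2-fold up and seen in 10% of cells or more, with 1 or more in the 10 top genes, and no rival class. Early-Mid FCs-like clusters needed 3 or more of their markers seen in 25% of cells, no more than 10 genes 8-fold up, and no low depth. These thresholds were set after clusters had been seen. Classes are rebuilt here and may differ from the study's.

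UMIs were summed per class and library and scaled per 1000000. Intervals are exact at 95% (scipy 1.17.1). No test was run, since cells are not replicates. Counts of members between ages and between the pair of clusters rest on genes that reached 100 UMIs in those cells in the 2 libraries combined, and on a fold of 1.2. Counts between classes rest on genes that reached 30 UMIs in the class set against Early-Mid FCs-like cells, and on a fold of 1.5. Members named are the 5 highest and 5 lowest by ratio of age over all cells, the 3 highest and 3 lowest in FSCs + pFCs-like cells (both with at least 200 UMIs), the 3 highest and 3 lowest by ratio of Germ cell-like to Early-Mid FCs-like cells (at least 30 UMIs in germ cells), the 3 most and 3 least abundant, and tko and bonsai. Other members, and the pair of follicle clusters, were named after their values were seen. The members, lists and thresholds were chosen with earlier results of these data known. Positions are from BDGP6.54 (Ensembl 115), by gene ID for 72 members and by symbol for mRpS5. Interval and fold code was tested on simulated data.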

Additional observations from a re-analysis of the deposited data

Results flagged for a closer look

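The summed log2 ratio of 6 weeks over 1 week had opposite signs in different classes. It was 0.12 in Germ cell-like, 0.24 in Late FCs-like and 0.72 in Immune-like cells, and -0.05 in FSCs + pFCs-like, -0.05 in Early-Mid FCs-like and -0.18 in Gut- or tubule-like cells, each with a counting interval that leaves out 0. The difference between classes was not tested, since each age has 1 library. The Immune-like value fell to 0.07 and the Germ cell-like value to 0.02 without the cell with the most member UMIs of each library, and the Late FCs-like value was 0.10 with yolk and eggshell mRNAs left out of the total.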

How the results depend on the processing

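No paired analysis was possible because each age has 1 library. Of 69 values of the main results under alternatives, 38 moved by less than their counting interval, 30 moved and 1 changed sign, and of 307 values of single members or other classes, 260, 46 and 1 did so. A change of sign was counted only where the interval of the reported value left out 0, and ratios whose interval held 0, such as those of Escort-like and Muscle-like cells, took either sign. Over all cells (-0.08), the summed ratio was -0.092 with a mitochondrial limit of 10%, -0.046 with no limit, -0.094 without likely doublets, -0.091 with mitochondrially encoded and cytoplasmic ribosomal protein genes left out of the total, -0.093 with equal weight per cell, -0.072 centred on the median gene and -0.044 with classes weighted by their mean share. In Early-Mid FCs-like cells (-0.05) it was -0.019 with no limit, -0.060 without likely doublets, -0.081 with both gene groups left out, -0.043 with the libraries clustered together and -0.029 with cells classed by their own marker UMIs. In FSCs + pFCs-like cells (-0.05) it was -0.10 with the libraries clustered together and 0.10 with cells classed by their own markers, a setting whose class drew 38.8% of its cells at 6 weeks and 28.4% at 1 week from Early-Mid FCs-like clusters. Germ cell-like over Early-Mid FCs-like cells at 6 weeks (0.70) was 0.64 with no limit, 0.74 without likely doublets, 0.43 with both gene groups left out, 0.65 with equal weight per cell and 0.19 with cells classed by their own markers, and at 1 week (0.53) it was 0.17, 0.70 and 0.23 under the last 3 settings. The count of members at least 1.2-fold lower at 6 weeks (0) was 1 with a limit of 10%, 2 without likely doublets, 1 with both gene groups left out and 2 with equal weight per cell, and the count of higher members was 0 under each. The Germ cell-like ratio of age (0.12) was -0.10 with equal weight per cell. Alternatives chosen after seeing the data gave -0.10 over all cells, -0.066 in Early-Mid FCs-like and -0.10 in FSCs + pFCs-like cells with mitochondrially encoded genes alone left out of the total, -0.040 in Early-Mid FCs-like cells with clusters weighted by their mean share, and 0.58 for the germ cell ratio at 6 weeks without the cell with the most member UMIs. At resolution 0.5 no cluster took the germ cell name, so that ratio has no value there. The cause of each of these shifts was not tested. Depth limits the small classes, where 18 and 68 of 72 members reached 100 UMIs in Muscle-like and Germ cell-like cells.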
